A study of Homo sapiens with 3 samples.

Results

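Heat shock proteins and chaperones were followed through 8 genes: HSPA1A, HSPA1B and HSPA8 of the cytosolic HSP70 family, HSPA5 of the endoplasmic reticulum, the co-chaperone DNAJB1, the cytosolic HSP90 genes HSP90AA1 and HSP90AB1, and the mitochondrial chaperonin HSPD1. Each gene was taken as every position on its strand within a fixed hg19 window, and the counts of a window were summed. On the plus strand these were HSPA1A (chr6:31783200-31786100), HSPA1B (chr6:31795400-31798400) and HSP90AB1 (chr6:44214700-44222000). On the minus strand they were HSPA8 (chr11:122927900-122933000), HSPA5 (chr9:127996800-128003800), DNAJB1 (chr19:14625300-14629400), HSP90AA1 (chr14:102546800-102606300) and HSPD1 (chr2:198351000-198364900). The 8 windows held 759 of the 1713395 nuclear positions with counts, and 7 of the 8 passed a filter of 10 CPM on average (counts scaled to a nuclear total of 1000000 per library), which 10843 single 3′ end sites and 9914 loci of neighbouring sites also passed. HSPA1A was the 1 window below it.

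The libraries came from HEK293T, an established human embryonic kidney cell line. Poly(A) ends were counted in RNA captured after 30 min in 4-thiouridine (4sU), in RNA captured after 60 min, and in the input of the 30 min labelling, with 1 library each. The labels give the dose as 1000 mM, where the unit may be an error and could not be checked; the input has no treatment in its own label, although its title names the 30 min labelling, and the 60 min labelling had no input of its own here. 4sU is built into RNA made while it is present, so captured RNA is enriched for new molecules. Per the labels' protocols the captured RNA was poly(A) selected 1 time fewer, and whether this held for the input too is not stated there, so capture and selection cannot be told apart in the ratios to the input. Nuclear counts were 9652023 at 30 min, 6151986 at 60 min and 32768468 in the input. Differences have no replicate check, and every interval below is a 95% interval that covers counting error only.

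Chaperones bind unfolded or partly folded proteins. HSP70 proteins do so in cycles of ATP use that J-domain proteins such as DNAJB1 start, HSP90 proteins act later on kinases, receptors and other clients, and the HSPD1 chaperonin encloses proteins inside mitochondria. Heat shock factor 1 drives many of these genes through the heat shock element, a run of GAA and TTC blocks, while HSPA5 answers to the unfolded protein response through the ER stress element.

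The promoter sequences were searched for the letters of these control elements. All 8 genes matched RefSeq promoters (GRCh38.p14, unlike the hg19 windows, with 14 entries since some genes have several starts), and the 250 bases before each start were searched on both strands. The 3-block heat shock element, read as TTC, GAA and TTC or as GAA, TTC and GAA with any 2 bases between blocks, was in 0.441% of 35116 promoter entries and in 4 of the 14, 1 each of HSPD1, HSP90AB1, HSPA8 and HSP90AA1. Capitals mark the element, with overlapping matches joined:
HSPD1, chr2:197500061-197500090, minus strand: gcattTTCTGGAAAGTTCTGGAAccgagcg
HSP90AB1, chr6:44247770-44247799, plus strand: ggagcaggTTCTGGAAGATTCatgggctcc
HSP90AB1, chr6:44247823-44247852, plus strand: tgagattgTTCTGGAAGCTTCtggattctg
HSPA8, chr11:123062345-123062374, minus strand: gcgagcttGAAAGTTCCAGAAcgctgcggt
HSPA8, chr11:123062170-123062199, minus strand: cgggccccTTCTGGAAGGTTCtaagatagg
HSP90AA1, chr14:102087111-102087140, minus strand: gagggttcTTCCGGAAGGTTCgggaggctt

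The promoters of HSPA1A, HSPA1B and DNAJB1 had no match to these letters but held a shorter form, GAA, any 2 bases and TTC. This form, which lies within the longer element and was chosen after the sequences were seen, was in 5.78% of all promoter entries and in 7 of the 14, 1 for each gene but HSPA5. The 250 bases of HSPA1A and HSPA1B were 93.6% identical. The ER stress element, CCAAT and CCACG with any 9 bases between them, was in 0.074% of promoters and in that of HSPA5. The 150 bases before each start follow, with the shorter form and, in the HSPA1 pair, the TATA box TATAAA (also added later, in 10.7% of promoters) in capitals, and the ER stress element in capitals for HSPA5:
HSPA1A, chr6:31815393-31815542, plus strand: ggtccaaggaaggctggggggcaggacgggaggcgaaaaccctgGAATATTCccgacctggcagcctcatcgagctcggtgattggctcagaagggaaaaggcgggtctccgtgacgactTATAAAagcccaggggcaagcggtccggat
HSPA1B, chr6:31827588-31827737, plus strand: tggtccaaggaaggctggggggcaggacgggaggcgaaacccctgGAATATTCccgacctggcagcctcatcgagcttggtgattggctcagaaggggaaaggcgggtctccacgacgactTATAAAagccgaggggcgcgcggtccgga
DNAJB1, chr19:14518398-14518547, minus strand: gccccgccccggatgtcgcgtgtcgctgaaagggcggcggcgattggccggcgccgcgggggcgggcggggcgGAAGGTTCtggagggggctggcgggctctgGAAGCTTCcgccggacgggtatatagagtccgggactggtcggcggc
HSPA5, chr9:125241344-125241493, minus strand: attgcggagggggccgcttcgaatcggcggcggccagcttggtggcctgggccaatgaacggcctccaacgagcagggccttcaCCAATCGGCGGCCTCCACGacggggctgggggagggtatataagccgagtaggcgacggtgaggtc
A match describes the letters of the window and does not show a bound factor. A missing match does not show that a gene lacks an element, since the letters were fixed and only 250 bases were searched.

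The order of the genes by level differed between captured RNA and input. The values are CPM of nuclear counts, in which a transcript gives its end and not its length. DNAJB1 stood first in both captured libraries, at 1259.9 CPM after 30 min and 851 CPM after 60 min, and in place 4 in the input, at 291 CPM. HSPD1 stood first in the input, at 1451 CPM, and took place 5 after 30 min (232 CPM) and place 4 after 60 min (335 CPM). HSP90AB1 and HSPA1B took places 2 and 3 in all 3 libraries. HSP90AA1, HSPA8 and HSPA1A took the last places, in that order, in each library. Neighbours in each order were apart by more than their counting intervals. In the input, for example, DNAJB1 was at 285 to 297 CPM and HSPA5 at 267 to 279 CPM. These intervals do not cover reads that match several places, whose handling is not known here. The places of HSPA1A, HSPA1B, HSPA8 and HSPD1 are uncertain for that reason, and the last places of HSPA8 and HSPA1A do not show low expression. Together the 8 windows held 0.326% of nuclear counts after 30 min, 0.252% after 60 min and 0.406% in the input.

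**Figure D1:**
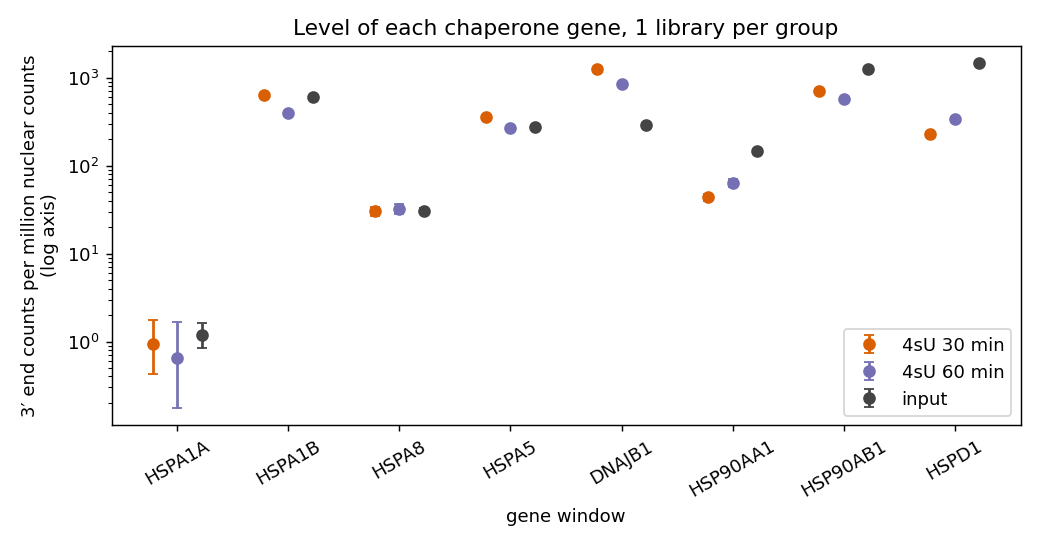
3′ end CPM of nuclear counts (log axis) of the 8 gene windows in 4sU 30 min, 4sU 60 min and input, 1 library each, with exact Poisson 95% intervals that cover counting error. DNAJB1 is higher in both captured libraries, at 1259.9 and 851 CPM, than in the input, at 291 CPM, and HSPD1 is lower, at 232 and 335 CPM, than in the input, at 1451 CPM.

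Against the input, the genes did not move as a group. A window was called higher or lower at a ratio of at least 2-fold with an interval that excluded 1. After 30 min, 1 of the 8 windows was higher (DNAJB1) and 2 were lower (HSP90AA1 and HSPD1), beside 35.7% of loci higher and 15.3% lower. After 60 min, 1 was higher (DNAJB1) and 3 were lower (HSP90AA1, HSP90AB1 and HSPD1), beside 27.8% and 19.5% of loci. Single sites showed how far the background rests on the scaling: 35.3% higher and 17.1% lower at 30 min, but 26.9% and 26.7% with mitochondrial counts in the total, and 27.3% and 21.8% at 60 min, but 20% and 32.4%. The median log2 ratio of the 8 windows was -0.18 after 30 min, against 0.41 for all loci, and -0.72 after 60 min, against 0.095. Without HSPA1A, which did not pass the filter that defines the loci, the median of the other 7 windows was -0.0099 after 30 min and -0.57 after 60 min. With 8 genes, such counts set the list apart from all loci in neither direction. The captured libraries share the input in these ratios. A window sums every position in it, while a locus joins only neighbouring sites past a count minimum. The shares and percents of loci are therefore a rough background for the windows, most of all for that of HSP90AA1, which spans 59501 nt.

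DNAJB1, the J-domain partner that hands clients to HSP70, had 12161 counts after 30 min and 5238 after 60 min, against 9535 in the input. Its ratio was 4.33 (4.22 to 4.45) after 30 min and 2.93 (2.83 to 3.03) after 60 min, higher than in 83.3% and 81.7% of loci. Both of its ends were above the input. The main end, at chr19:14625582, held 11330, 4949 and 8690 counts (30 min, 60 min, input), and the end 1009 nt upstream held 793, 280 and 832. The main end was 4.43-fold the input after 30 min and the upstream end 3.24-fold (2.93 to 3.57), while after 60 min they were 3.03-fold and 1.79-fold (1.56 to 2.05), so the upstream end no longer reached 2-fold.

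HSPD1 had 2236 counts after 30 min and 2061 after 60 min, against 47542 in the input. It was 6.26-fold lower (6.00 to 6.54) than in the input after 30 min and 4.33-fold lower (4.14 to 4.53) after 60 min. Only 0.464% of loci had a lower ratio at 30 min and 2.06% at 60 min. Nearly all of its RNA ended at 1 site, chr2:198351310, with 97.9%, 98.7% and 99.6% of the window in the order 30 min, 60 min and input. A further 22 genes of the RefSeq table carry names of HSPD1 pseudogenes, and the rule for reads that match several places is not known here, so the count of HSPD1 is uncertain. Such names were also found for DNAJB1 (2) and HSPA5 (1). Only names made of the symbol, P and a number were counted, so pseudogenes named otherwise would be missed. The counts of the other genes are therefore not shown to be free of such reads.

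The HSP90 pair lay below the input, and the genes were unlike in level and in ends. HSP90AB1, the mostly constitutive member, had 706 CPM after 30 min and 575 CPM after 60 min, against 1268 CPM in the input. Its ratio of 0.557 (0.543 to 0.572) did not reach 2-fold at 30 min, although it did under each of 3 other scalings (0.411 to 0.435), and at 60 min it was 2.21-fold lower (2.13 to 2.28). HSP90AA1, the more stress-inducible member, had 43.8 CPM after 30 min and 63.2 CPM after 60 min, against 145.9 CPM in the input, or 3.33-fold lower (3.01 to 3.69) and 2.31-fold lower (2.08 to 2.57). At its main end alone, chr14:102547384, the counts were 208, 219 and 4450, so this end was 6.30-fold lower (5.48 to 7.28) after 30 min and 3.81-fold lower (3.33 to 4.39) after 60 min, beside 6.38-fold and 4.37-fold at the main end of HSPD1.

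With nuclear CPM, the HSP70 genes of the cytosol had ratios within 2-fold of the input as sums, although the intervals of HSPA1A reached past it. HSPA1B, a classic heat-inducible HSP70, had 636 CPM after 30 min and 401 CPM after 60 min, against 596 CPM in the input, with ratios of 1.07 (1.04 to 1.10) and 0.673 (0.645 to 0.702). The first of these was 0.833 when the libraries were scaled with trimmed means of M values (TMM), so its direction depended on the scaling. The second was 0.501 with mitochondrial counts in the total. HSPA1A, whose protein is nearly that of HSPA1B, had 9 counts after 30 min and 4 after 60 min, against 39 in the input, too few to show a difference. Its ratio at 60 min was 0.546 (0.142 to 1.51), and 0.407 with mitochondrial counts in the total. Reads of this pair may be shared, and the counts of HSPA1A and HSPA1B are uncertain for that reason.

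HSPA8, the constitutive HSP70 of the cytosol, had 294 counts after 30 min and 198 after 60 min, against 1005 in the input, or 30.5, 32.2 and 30.7 CPM. Its ratios, 0.993 (0.869 to 1.13) and 1.05 (0.896 to 1.22), had intervals that included 1. With the 3 other scalings the ratio was 0.732 to 0.775 at 30 min, and with mitochondrial counts in the total it was 0.782 at 60 min, so HSPA8 is not shown to be level with the input. RefSeq names 20 pseudogenes of HSPA8, so its count is uncertain. HSPA5, also called BiP, had 3423 counts after 30 min and 1633 after 60 min, against 8948 in the input. Its ratios were 1.30 (1.25 to 1.35) after 30 min and 0.972 (0.922 to 1.02) after 60 min, and the first was 1.01 with TMM and 0.957 with mitochondrial counts in the total.

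**Figure D2:**
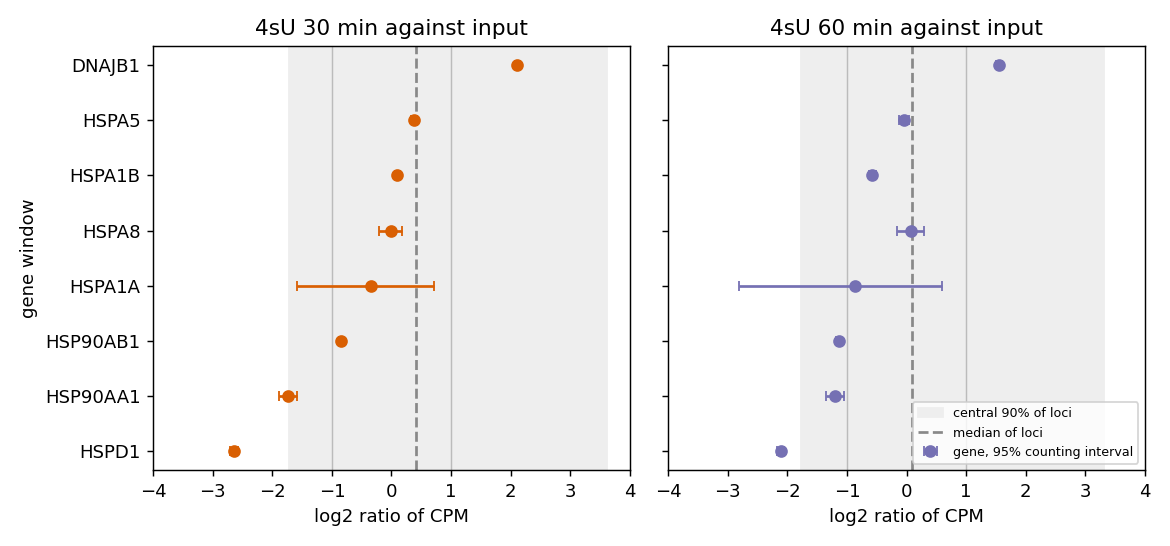
Log2 ratio of CPM to the input for the 8 gene windows after 30 min (left) and 60 min (right), ordered by the 30 min ratio, with 95% counting intervals. The grey band is the central 90% of loci, the dashed line their median and the thin lines mark 2-fold; HSPD1, at -2.65 and -2.11, is below the band in both comparisons, while DNAJB1, at 2.11 and 1.55, is past 2-fold and inside it.

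HSPA1B used a pair of ends whose balance differed in every library. The upstream end, at chr6:31797907, lay 124 nt before the downstream end, at chr6:31798031. The downstream end held 53.9% of the window after 30 min (52.7 to 55.2) and 37.4% after 60 min (35.4 to 39.3), against 80.2% in the input (79.7 to 80.8). The upstream end held 45.7%, 62.2% and 19.4% in the same order, so it was the larger of the pair at 60 min only. Over the pair, the downstream share differed from the input by -26.4 points after 30 min (-27.8 to -25.0) and by -43.0 points after 60 min (-44.98 to -40.99). The difference of 60 from 30 min was -16.6 points (-18.9 to -14.3). Among the groups of neighbouring ends of the whole series, 18% had a downstream share at least 10 points above the input at 30 min and 10.5% at least 10 points below it. At 60 min these were 19.3% and 10.8%, and between the labelling times 8.36% and 7.87%. Groups of this kind were found in 4 of the genes. Beside HSPA1B, the far upstream pair of HSP90AA1 ends, 1886 nt apart, passed 10 points at 30 min, with 24 of 76 counts downstream against 12 of 20 in the input. DNAJB1 (2.20 and 3.38 points) and HSP90AB1 (0.480 and -1.64 points) did not. These shares use no scaling between libraries. Reads of HSPA1B may be shared with HSPA1A, and runs of A beside the ends could not be read.

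The sum of HSPA1B combined a pair of ends with unlike ratios to the input. The upstream end had 2805 counts after 30 min and 1533 after 60 min, against 3786 in the input, which made it 2.52-fold (2.39 to 2.64) and 2.16-fold (2.03 to 2.29) the input. The downstream end had 3309 and 921 counts, against 15662 in the input, with a ratio of 0.717 (0.691 to 0.745) after 30 min and a level 3.19-fold lower (2.99 to 3.42) after 60 min. The 2-fold call of the upstream end at 30 min was lost under 3 other scalings (1.85 to 1.96), and that at 60 min with mitochondrial counts in the total (1.61), while the gap between the ends does not depend on scaling. Between the labelling times, the downstream end was 2.29-fold lower (2.13 to 2.47) at 60 min than at 30 min, but 0.521 with TMM and 0.538 with median-of-ratios scaling, which did not reach 2-fold. Among the 11 sites past the filter it was the 1 called lower, and none was called higher, beside 14% of all sites lower and 4.58% higher. The upstream end had a ratio of 0.857 (0.805 to 0.913), but 1.02 with TMM and 1.06 with median-of-ratios scaling, so its direction depended on the scaling.

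**Figure D3:**
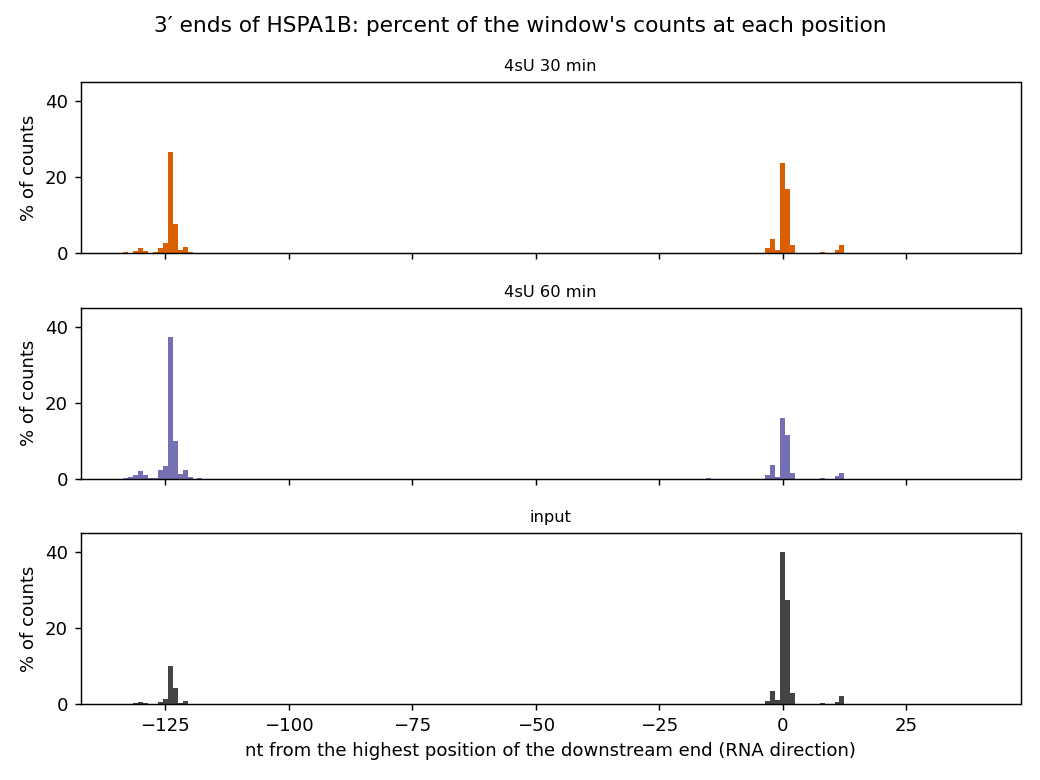
Percent of the counts of the HSPA1B window at each position, by distance from the highest position of the downstream end in the direction of the RNA, for 4sU 30 min, 4sU 60 min and input (1 library each). The cluster 124 nt upstream holds 45.7% after 30 min and 62.2% after 60 min, against 19.4% in the input.

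Among the 11 sites of the 8 windows that passed the filter, 3 were higher and 2 lower than in the input after 30 min, beside 35.3% and 17.1% of all sites. After 60 min, 2 were higher and 4 lower, beside 27.3% and 21.8%. The higher ones at 30 min were the upstream end of HSPA1B and both ends of DNAJB1, and at 60 min the first and the main end of DNAJB1. The lower ones at 30 min were the main ends of HSP90AA1 and HSPD1, joined at 60 min by those of HSP90AB1 and the downstream end of HSPA1B.

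Most genes ended at 1 site in the input, and some spread over more sites in captured RNA. In the input the highest site held over 90% of the counts in 7 of the 8 windows, all but HSPA1B. For HSP90AA1 it held 49.2% after 30 min (44.3 to 54.0) and 56.3% after 60 min (51.2 to 61.3), against 93.1% in the input (92.3 to 93.8). For HSPA8 it held 82.7% (77.8 to 86.8) and 85.4% (79.6 to 89.97), against 94.9% (93.4 to 96.2). HSPA5 was level, at 97.3%, 96.2% and 97.0% in the order 30 min, 60 min and input, and DNAJB1 ran the other way, at 93.2%, 94.5% and 91.1%. Over 6810 loci with at least 100 counts in each library, the median share was 94.2%, 95.2% and 95.6% in that order. These medians are a different measure from the window shares. A locus held only neighbouring sites past a count minimum, while a window held every position in it, including distant sites and those with few counts. The window shares are therefore not directly comparable with the locus medians.

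The counts outside the main end of HSP90AA1 were spread along its window of 59501 nt. They made 22.3 CPM after 30 min and 27.6 CPM after 60 min, against 10.1 CPM in the input, or 2.21-fold (1.85 to 2.63) and 2.74-fold (2.26 to 3.30) the input. A site 10599 nt upstream of the main end had 32 and 64 counts, against 3 in the input, and a site 37844 nt upstream had 4 and 28 counts, against 0. Farther up, 55204 nt from the main end, another had 52 and 14 counts, against 8 in the input. Not every listed site rose: the site 547 nt upstream had 19 and 4 counts, against 100 in the input, with ratios of 0.645 (0.373 to 1.06) and 0.213 (0.057 to 0.563). All of these sites averaged less than the 10 CPM of the filter. With no gene annotation of this build, these sites were not assigned to introns or isoforms. Runs of A beside these sites could not be read either, and whether such runs gave rise to the counts was not tested. With positions under 5 counts left out, the main end of HSP90AA1 held 57.5%, 62.2% and 95.6% (30 min, 60 min, input). In the HSPA8 window the same counts were 51 after 30 min and 29 after 60 min, against 51 in the input, or 3.39-fold (2.26 to 5.11) and 3.03-fold (1.85 to 4.87) by CPM. Without positions under 5 counts, the HSPA8 main end held 91.4% and 94.4%, against 99.7% in the input. Rises of this kind were common among low sites. Of all sites averaging at least 1 CPM, 48.9% were called higher at 30 min and 37.5% at 60 min. The ratios also depend on the scaling, since 3 other scalings moved every log2 ratio by -0.36 to -0.44 at 30 min and by -0.068 to -0.43 at 60 min.

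**Figure D4:**
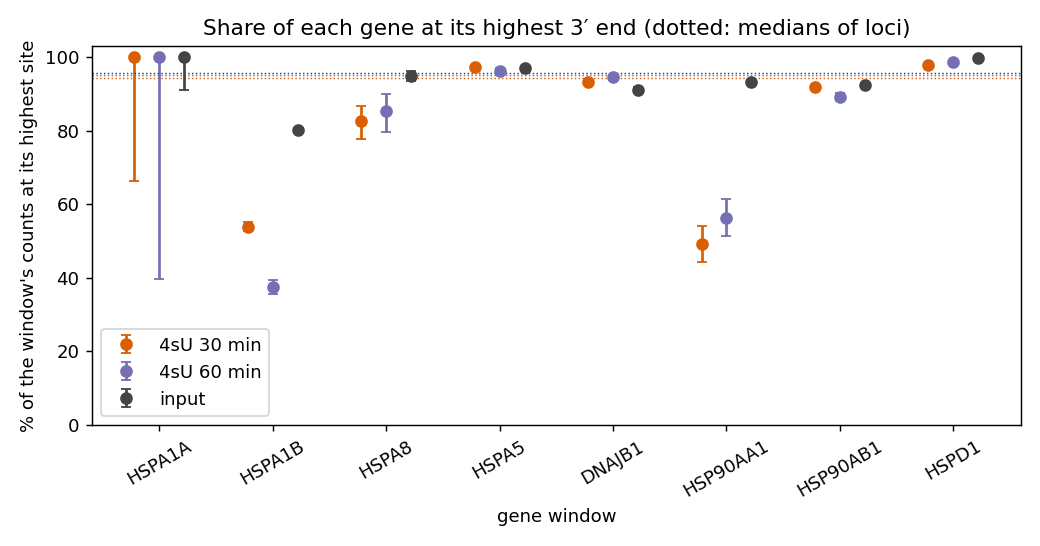
Percent of the counts of each gene window at its highest site in 4sU 30 min, 4sU 60 min and input, with exact binomial 95% intervals. Dotted lines are the medians of 6810 loci, whose shares count neighbouring sites only and are not directly comparable with the window shares. HSPA1B (53.9% and 37.4%, against 80.2% in the input) and HSP90AA1 (49.2% and 56.3%, against 93.1%) are far below their input values.

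The main ends kept their highest position of cleavage. This position was identical in the 3 libraries at each of the 8 main ends and at the upstream end of HSPA1B. The mean position was not always the same: at HSP90AB1 it lay -2.63 nt from the highest position after 30 min and -2.19 nt after 60 min, against -2.20 nt in the input. The ends also differed in width. At DNAJB1 the standard deviation (SD) of positions was 1.01 nt after 30 min and 0.991 nt after 60 min, against 0.861 nt in the input, and at HSPD1 it was 1.02 and 0.885 nt, against 0.953 nt. HSPA5 placed its cut over several bases, with 27.2% of the site at the highest position after 30 min and 27.2% after 60 min, against 31.7% in the input. At the downstream end of HSPA1B the SD was 3.33 nt after 30 min and 3.41 nt after 60 min, against 2.57 nt in the input. HSP90AB1 was widest, at 7.11 and 6.57 nt, against 6.64 nt, since 12.4% and 10.5% of its site, against 10.3% in the input, lay over 12 nt upstream of the highest position.

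Between the labelling times no window passed 2-fold, where 4.3% of loci were higher and 12.5% lower at 60 min. HSPD1 and HSP90AA1 had the largest ratios of 60 to 30 min among the 8, 1.45 (1.36 to 1.54) and 1.44 (1.25 to 1.66), above 88.7% and 88.6% of loci. HSPA1B and DNAJB1 had the smallest, 0.630 (0.601 to 0.660) and 0.676 (0.654 to 0.698), above 26.8% and 32.1% of loci. With TMM, HSPA1B and DNAJB1 were at 0.752 and 0.807, and HSPD1 and HSP90AA1 at 1.73 and 1.72. HSPA5 was at 0.748 (0.705 to 0.794), HSP90AB1 at 0.813 (0.781 to 0.847, but 1.002 with median-of-ratios scaling) and HSPA8 at 1.06 (0.878 to 1.27). The median log2 ratio of the 8 windows was -0.36, and -0.30 without HSPA1A, against -0.28 for all loci.

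By the distance between pairs of log2 ratios to the input at 30 and 60 min, over the 3 libraries, the most alike genes were HSPA8 and HSPA5 (0.402), followed by HSPA1A and HSPA1B (0.538, with few counts for HSPA1A). Among 4874 sites with a mean of at least 30 CPM, the nearest to the main end of DNAJB1 was chr17:42088557 on the minus strand, at log2 ratios of 2.14 and 1.60. The next were chr9:139006435 and chr9:138898385, both on the minus strand, at 2.14 and 1.62 and at 2.12 and 1.59. These sites were not assigned to genes.

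Few ends lay just outside the windows. Of the main ends, 7 of 8 lay within 600 nt of the downstream edge of their window and that of HSPA5 lay 1719 nt from it. Sites with at least 100 counts in the 5000 nt on either side were found for HSPA1B and HSPD1 alone. A site 1296 nt downstream of the HSPA1B main end had 135 counts after 30 min and 92 after 60 min, against 305 in the input, and a site 1711 nt downstream had 80 and 108, against 173. A site 351 nt downstream of the HSPD1 main end had 34 and 17 counts, against 183 in the input, and a site 511 nt downstream had 8 and 10, against 146.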

How the data were processed

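The authors deposited, in 1 table per library, raw read counts for each stranded position, with no normalization and no molecular identifiers named. Cutadapt and Bowtie were used, per the submitters' processing notes; versions, build and the rule for reads with several matches are not given in the sources read here. The windows are in hg19 numbering, the files name no build, and the listed strand is read as the RNA's. Positions are 1-based. Total counts were 14159691 at 30 min, 8926568 at 60 min and 35410931 in the input, of which chrM held 31.8%, 31.1% and 7.46%. In the same order, 1 count is worth 0.104, 0.163 and 0.0305 CPM.

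Positions within 24 nt of a local maximum were merged into sites, and sites of at least 20 counts with gaps of at most 2000 nt into loci. Counts were scaled to nuclear CPM. Ratios carry exact Clopper-Pearson intervals and no p-value is given. Group shares used ends with 5% of a group of at least 100 counts and Newcombe intervals. A count of 0 was floored at 3 counts per library. The calls were tested on simulated data that held counting error alone, so this check does not cover variation between libraries. Python 3.11.15, scipy 1.17.1 and, for TMM, edgeR 4.0.16 were used. All 8 genes are named, and sites with 1% of a window were listed (28). The members, lists and motifs were chosen with earlier results of these data known. Another 22 chaperone genes had been listed, but with no hg19 annotation they were not analysed here. Alternatives were 3 scalings, other sums, filters, folds and merging distances; the scalings of the single HSPA1B ends and the medians without HSPA1A were added after the data were seen.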

Additional observations from a re-analysis of the deposited data

Results flagged for a closer look

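HSPA1B was on opposite sides of the input after the labelling times, with a ratio of 1.07 after 30 min and 0.673 after 60 min, and intervals that excluded 1 in opposite directions. The difference was not tested, since each group had 1 library, and the 30 min ratio was 0.833 with TMM.

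Counts on the strand opposite to the genes lay outside the comparisons. In the HSP90AB1 window they made 31.8 CPM after 30 min, above the 21.3 CPM of the input, and 8.13 CPM after 60 min. Of these, 302 counts after 30 min and 49 after 60 min, against 697 in the input, were at 1 site, 225 nt downstream of the main HSP90AB1 end. SLC35B2 neighbours HSP90AB1 in the RefSeq gene table. In the HSP90AA1 window they made 1.86 CPM after 30 min and 1.14 CPM after 60 min, against 0.122 CPM in the input, from 18 and 7 counts, against 4.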

How the results depend on the processing

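No paired analysis was possible because each group had 1 library, which also left no replicate to leave out. Relative to nuclear CPM, TMM moved every log2 ratio by -0.36 at 30 min, -0.10 at 60 min and 0.26 between the times; median-of-ratios scaling moved them by -0.37, -0.068 and 0.30, and mitochondrial counts in the total by -0.44, -0.43 and 0.016. Under these 3 scalings DNAJB1 remained higher at both times and HSPD1 and HSP90AA1 lower, and HSP90AB1 was also lower at 30 min (3 lower in all). At a 4-fold threshold 1 window was lower at each time (HSPD1), and 1 (DNAJB1) was higher at 30 min and 0 at 60 min. Between the times 1 window was lower with the highest site alone or at 1.5-fold (HSPA1B). Over the settings tried, 73 ratios of genes and of HSPA1B ends moved past their intervals and 83 did not. The shares of HSPA1B at its main end stayed within their intervals under the merging distances and the count filter tried. Of all shares, 15 moved past theirs and 57 did not. That of HSP90AB1 was 80.3%, 79.7% and 82.9% (30 min, 60 min, input) when merged over 12 nt, and the spread of its positions within 12 nt was 1.75, 1.52 and 1.54 nt. Of all sites, at 30 min 839 were higher and 679 lower among those averaging at least 50 CPM, 19615 and 4992 at a minimum of 1, and 2898 were lower with mitochondrial counts in the total. At 60 min these were 702 and 697, and 15062 and 6814. Between the times they were 124 and 216, 3260 and 7245, and, with TMM, 822 and 811 and, with median-of-ratios scaling, 897 and 735. The cause was not tested. Depth limits HSPA1A most.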
